A study of Mus with 6 samples.

Results

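The genes described here were those of the vascular endothelial growth factor (VEGF) ligands and their receptors, 8 genes taken from the table by name with no threshold on a measured value. They were the ligand genes Vegfa, Vegfb, Vegfc and Pgf, the receptor tyrosine kinase genes Flt1 (VEGFR-1) and Kdr (VEGFR-2), and the neuropilin genes Nrp1 and Nrp2. Of these 8 genes, 4 were among the 10995 genes listed in the table of expression values, namely Vegfa, Vegfb, Pgf and Nrp2. Vegfc, Flt1, Kdr and Nrp1 were not listed and were not analysed here. The libraries came from naive CD4+ T cells of the spleen of wild-type (WT) mice. All cells were stimulated for 3 days through the T cell receptor and its costimulator with antibodies to CD3, at 5 μg/mL, and to CD28, at 2 μg/mL, and received IL-2 (100 U/mL). They were cultured either with a neutralizing antibody to VEGF-B (1 μg/mL) or with normal goat IgG (1 μg/mL) as its control, with 3 RNA-Seq libraries per treatment. The age and number of the mice were not given in the sources used here, and nothing states that the 3 libraries of a treatment came from separate mice or cultures, so that p values measure only the spread between these libraries.

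VEGF ligands are secreted, disulfide-linked dimers. VEGF-A binds both VEGFR-1 and VEGFR-2, of which VEGFR-2 carries most of the angiogenic signal in endothelial cells, whereas VEGF-B and placental growth factor (PlGF, encoded by Pgf) bind VEGFR-1 and not VEGFR-2. VEGF-C acts mainly on the lymphatic endothelium. Neuropilins have a short cytoplasmic tail without a kinase, bind VEGF as well as class 3 semaphorins, and work as coreceptors with the VEGF receptors or with plexins. The VEGF-B gene is known for being coexpressed with mitochondrial genes, and the VEGF-A gene for being a target of hypoxia-inducible factor (HIF). The comparison of anti–VEGF-B with IgG asks what changes in activated T cells when the VEGF-B they secrete is bound by an antibody in the medium. The antibody acts on the protein, so the Vegfb transcript was not itself a target.

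Values were taken as FPKM, that is, fragments scaled to transcript length and to the reads of the library. This unit is an inference from the quantification tools and from values that are not whole numbers, since no source used here names it, the deposited table is called raw data, and the methods speak of raw counts. Comparisons of levels between genes, such as Vegfa with Vegfb, rest on it, whereas comparisons of 1 gene between treatments do not need the scaling to length. The values carry no read number, so the counting error of a low value is unknown. The summed FPKM ran from 260058 to 276622 per library. Between 59 and 91 genes were listed at 0 in the anti–VEGF-B libraries and 36 or 37 in the IgG libraries, and the median gene was at 3.46 to 3.68 FPKM against 4.14 to 4.76 FPKM. The part of this difference in the results was not tested. log2(FPKM + 1) was compared between treatments by limma for the 8816 genes averaging 1 FPKM or more, and genes were called where the Benjamini-Hochberg adjusted p lay under 0.05. A log2 fold change on this scale is smaller than that of the FPKM themselves for genes near or under 1 FPKM. Of all genes tested, 28.7% were called, with 23.8% lower and 4.87% higher with anti–VEGF-B, and the median log2 fold change was -0.15. These shares depended on the scaling between libraries, since 913 genes were called lower and 880 higher after quantile normalization, 938 and 852 after cyclic loess normalization, and 807 and 1365 after median centring, against 2099 and 429 as deposited. The number called was 2528, and it fell to 859 when anti–VEGF-B replicate 3 was left out, to 1359 for IgG replicate 2 and to 1679 for anti–VEGF-B replicate 1. Without moderation of the variance across genes, 12 genes were called, and none of them was a VEGF gene or in the lists of partners, HIF system or signalling genes below.

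The libraries carried the markers of CD4+ T cells, with Cd3d at 110 and 103 FPKM and Cd4 at 70.0 and 68.4 FPKM on average with anti–VEGF-B and IgG. Of 15 activated T cell markers tested, 6 were called lower with anti–VEGF-B and 0 higher, namely Il2ra (log2 fold change -0.97), Cd69 (-0.74), Cd3e (-0.51), Cd5 (-0.38), Tnfrsf9 (-0.31) and Icos (-0.29), with limma adjusted p between 0.00469 and 0.0412. The share called lower was 40% of this list, against 23.8% of all genes. Of 6 regulatory T cell markers tested, 3 were called lower, Il10 (-0.50), Ctla4 (-0.40) and Lrrc32 (-0.36), and 1 higher, Ikzf2 (0.42), shares of 50% and 16.7% against 23.8% and 4.87% of all genes. The other 3 of the 9 markers, Foxp3, Gpr83 and Itgae, averaged under 1 FPKM. None of them was called in a separate fit over all 10995 listed genes. Foxp3 was at 0.791 and 1.06 FPKM on average with anti–VEGF-B and IgG (limma adjusted p = 0.147 in that fit). Calls in these marker lists were not repeated under the other scalings, which lowered the number of genes called lower over the whole table. The part of these T cell differences in the results below was not tested. For CD8 T cells both markers were listed, with Cd8a and Cd8b1 summing to at most 4.69 FPKM. For B cells 1 of 7 markers was listed, for dendritic cells 1 of 6, for platelets 1 of 6, for endothelial cells 2 of 10 and for fibroblasts 0 of 7, and none of these lists summed to more than 7.61 FPKM in any library. Cdh5, Tek, Tie1 and Vwf, which define endothelial cells, were among those not listed. Trac, Trbc1 and Trbc2 of the activated T cell markers were not listed either, so a marker that was not listed does not show that a cell type was absent. The 5 listed markers of macrophages and monocytes summed to 12.0 to 13.2 FPKM with anti–VEGF-B and to 13.5 FPKM in IgG replicates 1 and 2, but to 29.2 FPKM in IgG replicate 3. In this library Lyz2 was at 16.4 FPKM, against 3.26 to 4.19 in the others. The part of these cells in the results below was not tested. In bulk RNA, fewer cells of a type and less RNA per cell cannot be told apart.

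Vegfa was by far the most abundant of the 4 genes, with a mean of 148 FPKM over the 6 libraries and rank 256 among all listed genes by level. Vegfb had a mean of 6.74 FPKM (rank 4175), Nrp2 of 0.692 FPKM (rank 9465) and Pgf of 0.209 FPKM (rank 10723). Taken per length, this order held in each of the 6 libraries, and no neighbours in it overlapped within a treatment. Vegfa supplied between 93.5% and 96.6% of the summed FPKM of the 3 ligand genes in each library. Vegfb, the ligand whose protein was neutralized, was expressed at a level that Vegfa exceeded between 15.1 and 29.6 times.

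**Figure D1:**
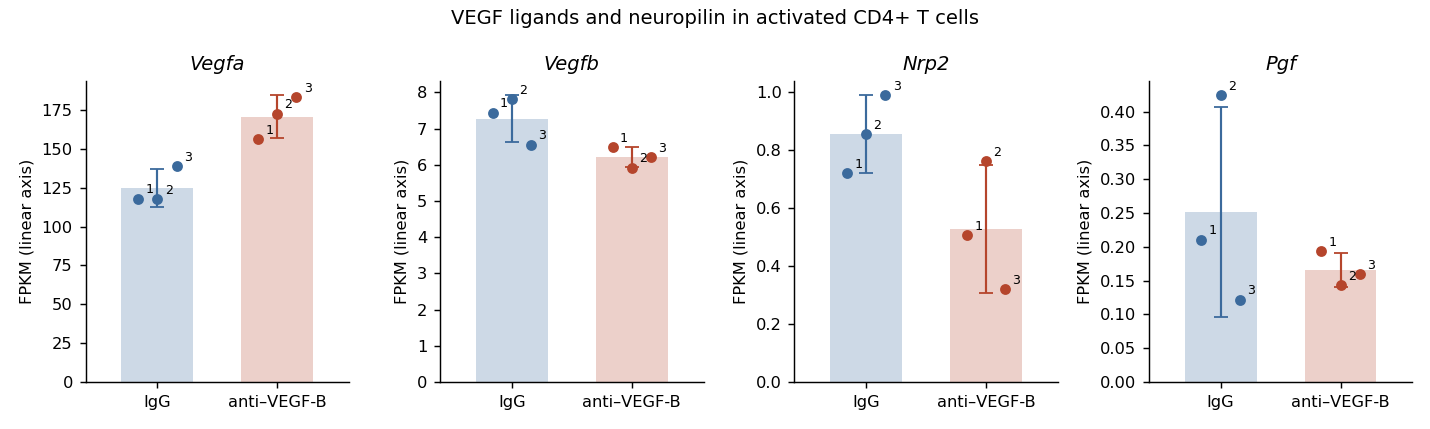
FPKM of Vegfa, Vegfb, Nrp2 and Pgf (linear axes from 0, 1 panel per gene with its own scale) in the IgG (blue) and anti–VEGF-B (red) libraries. Points are libraries with their replicate number, bars are means and whiskers are the SD of 3 libraries. Vegfa lay between 156 and 184 FPKM in the anti–VEGF-B libraries, above all IgG libraries, and Vegfb between 5.92 and 6.48, below all of them, whereas the groups overlapped for Nrp2 and Pgf.

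Of the 4 listed genes, Vegfa was the only one called, and it rose with anti–VEGF-B. Only Vegfa and Vegfb were in the fit of genes averaging 1 FPKM or more. In that fit 28.7% of all genes were called, and 4.87% were called higher. The Vegfa gene (ENSMUSG00000023951.17) lies on the minus strand of chromosome 17 of GRCm38, from 46016993 to 46032369. Vegfa was at 156, 173 and 184 FPKM in the anti–VEGF-B replicates 1, 2 and 3, and at 118, 118 and 139 FPKM in the IgG replicates. All 3 anti–VEGF-B libraries were above all 3 IgG libraries, and the highest IgG value was that of replicate 3, the library with the most macrophage and monocyte markers. The mean rose 1.37-fold, from 125 ± 12.2 to 171 ± 13.6 FPKM (SD, n = 3 each), with a log2 fold change of 0.45 (standard error, SE, 0.0926, 95% interval 0.24 to 0.66, limma adjusted p = 0.0115). A two-sided exact permutation test gave p = 0.1, the smallest that 3 against 3 libraries allow. Without IgG replicate 3 the log2 fold change was 0.53, and without anti–VEGF-B replicate 3, the library with the highest Vegfa, it was 0.40. Vegfa was called in all 6 fits that left out 1 library and under all 4 other scalings between libraries, with log2 fold changes of 0.39 after quantile normalization, 0.39 after cyclic loess normalization, 0.52 when scaled to Actb and 0.65 after median centring. With no moderation its adjusted p was 0.0838 (limma fit without empirical Bayes), against 0.00865 to 0.0838 over all alternatives.

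Rises of this size were uncommon among all genes. Of the genes tested, 170 (1.93%) had a log2 fold change above that of Vegfa. Groups that stood apart with higher values under anti–VEGF-B were seen for 10.5% of genes, and groups that stood apart with lower values for 38.5%. Fold changes shifted with the level of a gene, however. Among the 256 genes tested with a mean at least that of Vegfa, the median log2 fold change was 0.10, with 42 genes (16.4%) called higher and 12 called lower. Relative to the median of all genes tested, which takes no account of level, the log2 fold change of Vegfa was 0.60.

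Vegfb (ENSMUSG00000024962.13, minus strand of chromosome 19, 6982473 to 6987651) was slightly lower with anti–VEGF-B but was not called. It was at 6.48, 5.92 and 6.21 FPKM in the anti–VEGF-B replicates and at 7.44, 7.81 and 6.55 FPKM in the IgG replicates. The groups did not overlap, as for 38.5% of all genes in this direction, and the gap between the nearest libraries, anti–VEGF-B replicate 1 and IgG replicate 3, was small. The means were 6.20 ± 0.278 and 7.27 ± 0.650 FPKM (SD, n = 3 each), with a log2 fold change of -0.20 (SE 0.0962, 95% interval -0.41 to 0.020, limma adjusted p = 0.147). This was close to the median of all genes, with 43.7% of genes tested having a lower log2 fold change than Vegfb. The difference was -0.0064 after quantile normalization, -0.017 after cyclic loess normalization and 0.0044 after median centring, and limma adjusted p values lay between 0.113 and 0.974 across alternatives. Without IgG replicate 3 it was -0.26.

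The ratio of the ligands within a library does not depend on a common scale factor of that library. It does take in shifts of fold change with the level of a gene, and Vegfa and Vegfb differ widely in level. The ratio was not formed after quantile or cyclic loess normalization. After these the log2 fold changes were 0.39 and 0.39 for Vegfa, and -0.0064 and -0.017 for Vegfb. The FPKM of Vegfa were 24.1, 29.2 and 29.6 times those of Vegfb in the anti–VEGF-B replicates and 15.9, 15.1 and 21.2 times in the IgG replicates. Every anti–VEGF-B library thus had a higher ratio than every IgG library, with IgG replicate 3 the nearest. The log2 ratio of Vegfb to Vegfa averaged -4.78 ± 0.164 in the anti–VEGF-B and -4.10 ± 0.266 in the IgG libraries (SD, n = 3 each). The difference was -0.68, with p = 0.1 by exact permutation (two-sided), again the lowest p possible here. The balance between the ligand transcripts was therefore more on the side of Vegfa with anti–VEGF-B in all 3 libraries, by an amount that left-out libraries moved between -0.83 and -0.58.

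Nrp2 (ENSMUSG00000025969.15, plus strand of chromosome 1, 62703285 to 62818695), the neuropilin gene that was listed, and Pgf (ENSMUSG00000004791.7, minus strand of chromosome 12, 85166635 to 85177790) had means under 1 FPKM. They were therefore taken from a fit over all 10995 listed genes, in which 24.4% of genes were called, and neither was called. Nrp2 was at 0.505, 0.760 and 0.320 FPKM in the anti–VEGF-B replicates and at 0.721, 0.855 and 0.988 FPKM in the IgG replicates. The highest anti–VEGF-B value, that of replicate 2, lay above the lowest IgG value, that of replicate 1. The means were 0.529 ± 0.221 and 0.855 ± 0.134 FPKM (SD, n = 3 each), with a log2 fold change of -0.29 (SE 0.117, 95% interval -0.55 to -0.020, limma adjusted p = 0.10). The two-sided exact permutation p was 0.2. On the log2(FPKM + 0.1) scale the difference was -0.65, and without anti–VEGF-B replicate 2 on the scale used elsewhere it was -0.39 (limma adjusted p = 0.0546, the lowest among alternatives that reached 0.707). The difference was smaller under other scalings, at -0.12 after quantile normalization, -0.11 after cyclic loess normalization and -0.063 after median centring, and it was -0.19 without anti–VEGF-B replicate 3. RefSeq places 2 long noncoding RNA genes, Gm29083 and 4930487H11Rik, within the span of Nrp2, and whether the quantification used the strand of the reads is not given in the sources used here, so reads of these genes and of Nrp2 may not have been told apart.

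Pgf was barely detected. It was at 0.193, 0.143 and 0.159 FPKM in the anti–VEGF-B replicates and at 0.211, 0.424 and 0.122 FPKM in the IgG replicates, where replicate 2 was the highest and replicate 3 the lowest of all 6 libraries. The log2 fold change was -0.097 (SE 0.0928, 95% interval -0.31 to 0.11, limma adjusted p = 0.452, two-sided exact permutation p = 0.6). Without IgG replicate 2 it was -0.00041, and it was above 0 after quantile normalization, cyclic loess normalization and median centring.

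For Vegfc, Flt1, Kdr and Nrp1 no level can be given. No listed gene overlapped their RefSeq positions on GRCm38, so they were not listed under another name. Absence from the table can be read neither as a level of 0 nor as a level above it. The rule that set which genes were listed is not given in the sources used here. The table held 5 genes at 0 in all libraries and 80 genes with a mean under 0.1 FPKM. Because Flt1, Kdr and Nrp1 were not analysed, these libraries gave a value for 1 of the 4 receptor genes.

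Genes whose profile over the 6 libraries was most like that of a ligand were ranked by Pearson's r of log2(FPKM + 1). For Vegfa they were Rab33a (r = 0.996, Spearman's rho 0.943), Sertad2 (0.994, rho 1) and Frg1 (0.994, rho 1). All 3 were called higher with anti–VEGF-B, with log2 fold changes of 0.42, 0.45 and 0.27 (adjusted p at most 0.0289 from limma). For Vegfb they were Fam222b (r = 0.993, rho 0.943), Pih1d1 (0.991, rho 1) and Cnot8 (0.987, rho 1), none of which was called. Likeness of this degree was common with 6 libraries that share a treatment difference, as 136 genes had r of at least 0.95 with Vegfa and 107 with Vegfb, so it is only a description.

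Beyond the 8 genes, the remaining VEGF family and the plexins, semaphorins and membrane proteins that pair with neuropilins were examined as 1 list. Of its 33 genes, 19 were listed and 13 tested, and Vegfd and Flt4, the genes of VEGF-D and of the lymphatic receptor VEGFR-3, were not listed. Of the 13, 4 were called lower and 1 higher, shares of 30.8% and 7.69% against 23.8% and 4.87% of all genes, and the median log2 fold change was -0.23 against -0.15. These calls numbered 3 without anti–VEGF-B replicate 1 and 2 without anti–VEGF-B replicate 3, and after median centring 3 were lower and 4 higher.

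Plxna1, which encodes a plexin that transmits semaphorin signals together with neuropilins, fell most. It was at 2.1, 2.04 and 1.74 FPKM in the anti–VEGF-B replicates and at 3.76, 4.50 and 3.78 FPKM in the IgG replicates. Its log2 fold change was -0.76 (SE 0.108, limma adjusted p = 0.00491). Plxnb2, a receptor of class 4 semaphorins, fell from 2.11 ± 0.386 to 1.26 ± 0.0701 FPKM (SD, n = 3 each, log2 fold change -0.46, limma adjusted p = 0.0206), but was not called after quantile normalization, cyclic loess normalization or median centring, nor without anti–VEGF-B replicate 1 or 3 (adjusted p 0.0169 to 0.109 across alternatives). The transmembrane semaphorin genes Sema4b and Sema4f fell as well, with log2 fold changes of -0.57 (limma adjusted p = 0.0118) and -0.60 (adjusted p = 0.0150). Sema4f was not called after quantile normalization or without anti–VEGF-B replicate 3 (adjusted p 0.0119 to 0.0920 across alternatives).

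Sema7a, the gene of a membrane-anchored semaphorin made by activated T cells, was the member of this list that rose. It went from 22.0 ± 1.94 to 27.0 ± 0.882 FPKM (SD, n = 3 each, log2 fold change 0.29, limma adjusted p = 0.0339), and it was called without IgG replicate 2 but in no other fit that left out 1 library (adjusted p 0.00549 to 0.0987 across alternatives). The other 8 genes tested did not pass. Plxnd1, which encodes a plexin of the vasculature, had a log2 fold change of 0.20, Sema4c of 0.28, Sema4d (CD100) of 0.12, Sema4a of -0.43 and Plxnc1 of -0.23. Gipc1, whose product binds the tail of neuropilin-1, had -0.55 (limma adjusted p = 0.0732) with overlapping groups. The heparan sulfate proteoglycan genes Sdc4 and Sdc1 had -0.10 and -0.074, the signs of both and of Plxnc1 turned under at least 1 alternative, and Sdc4 was abundant, at 93.2 and 100 FPKM on average with anti–VEGF-B and IgG.

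The platelet-derived growth factors are the nearest relatives of the VEGF ligands, and of 7 PDGF ligand and receptor genes, Pdgfa and Pdgfb were listed. Pdgfa rose from 2.92 ± 0.427 to 4.33 ± 0.792 FPKM (SD, n = 3 each), with a log2 fold change of 0.44 (limma adjusted p = 0.0422). It was not called without the filter on low values, nor without anti–VEGF-B replicate 1 or 2 or IgG replicate 2 or 3 (adjusted p 0.0161 to 0.138 across alternatives). Pdgfb had a log2 fold change of -0.19 (limma adjusted p = 0.384), whose sign turned under at least 1 alternative.

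**Figure D2:**
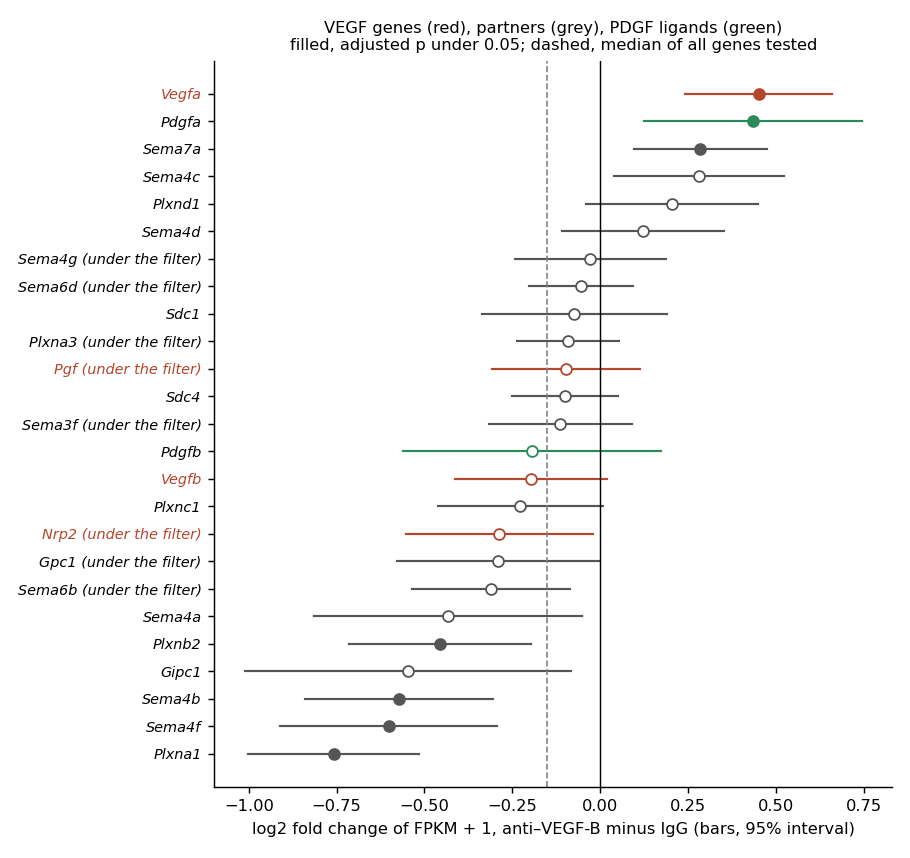
log2 fold change of FPKM + 1 (anti–VEGF-B minus IgG, horizontal axis) of the 4 listed VEGF genes (red names), the listed neuropilin partners (grey points) and the PDGF ligand genes (green points), with 95% intervals from limma. Filled points had an adjusted p under 0.05, and the dashed line is the median of all genes tested, -0.15. Vegfa had the highest value, 0.45, and Plxna1 the lowest, -0.76, while Vegfb lay near the dashed line.

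Vegfa transcription is controlled by HIF, a dimer of an oxygen-regulated α subunit and ARNT. Prolyl hydroxylases encoded by the Egln genes mark the α subunit for destruction through the ubiquitin ligase VHL, and the asparaginyl hydroxylase encoded by Hif1an blocks its activity. Of 22 tested genes of this system and of other regulators of Vegfa, 5 were called lower and 2 higher with anti–VEGF-B, 22.7% and 9.09% of the list against 23.8% and 4.87% of all genes, with a median log2 fold change of -0.11. The number called was 3 without anti–VEGF-B replicate 3, and after median centring 1 was lower and 7 higher. The 2 called higher, Hif1a and Egln1, had means of 192 and 322 FPKM over all libraries, above the 148 FPKM of Vegfa. Among all genes tested with a mean at least that of Vegfa, 16.4% were called higher.

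Hif1a, the gene of the main α subunit, rose together with Vegfa. It was at 217, 208 and 227 FPKM in the anti–VEGF-B replicates and at 163, 154 and 185 FPKM in the IgG replicates, so that the groups were apart. The log2 fold change was 0.38 (SE 0.0844, limma adjusted p = 0.0139), and it was not called without anti–VEGF-B replicate 3 (adjusted p 0.011 to 0.0827 across alternatives). Its partner gene Arnt had a log2 fold change of 0.20 (limma adjusted p = 0.0965), and the genes of the other α subunits, Epas1 and Hif3a, had -0.37 each, all not called.

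The genes of the oxygen-sensing enzymes moved in opposite directions. Egln1, also known as a HIF target, rose from 263 ± 21.2 to 380 ± 12.7 FPKM (SD, n = 3 each, log2 fold change 0.53, limma adjusted p = 0.00557). Egln3, another HIF target, fell from 376 ± 41.6 to 270 ± 22.1 FPKM (log2 fold change -0.47, limma adjusted p = 0.0118), but was not called after median centring or without anti–VEGF-B replicate 3 (adjusted p 0.0106 to 0.0856 across alternatives). Hif1an fell from 5.15 ± 1.06 to 2.76 ± 0.103 FPKM (SD, n = 3 each, log2 fold change -0.70, limma adjusted p = 0.00876). The calls of Egln2 (-0.35) and of Ep300 (-0.30), which encodes a HIF coactivator, were lost after quantile normalization, cyclic loess normalization, median centring and scaling to Actb, and without anti–VEGF-B replicate 1 or 3 or IgG replicate 2 or 3. Vhl had a log2 fold change of -0.28 (limma adjusted p = 0.199).

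Zfp36l1, which encodes a protein that binds AU-rich elements and promotes the decay of mRNAs including that of VEGF-A, fell from 37.5 ± 4.76 to 24.1 ± 4.98 FPKM (SD, n = 3 each), a log2 fold change of -0.63 (SE 0.148, limma adjusted p = 0.0169) that was not called after median centring (adjusted p 0.0173 to 0.117 across alternatives). The 15 genes of the list that were not called, among them Stat3, Sp1, Sp3, Myc and Zfp36, had adjusted p from 0.0581 to 0.843 (limma).

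**Figure D3:**
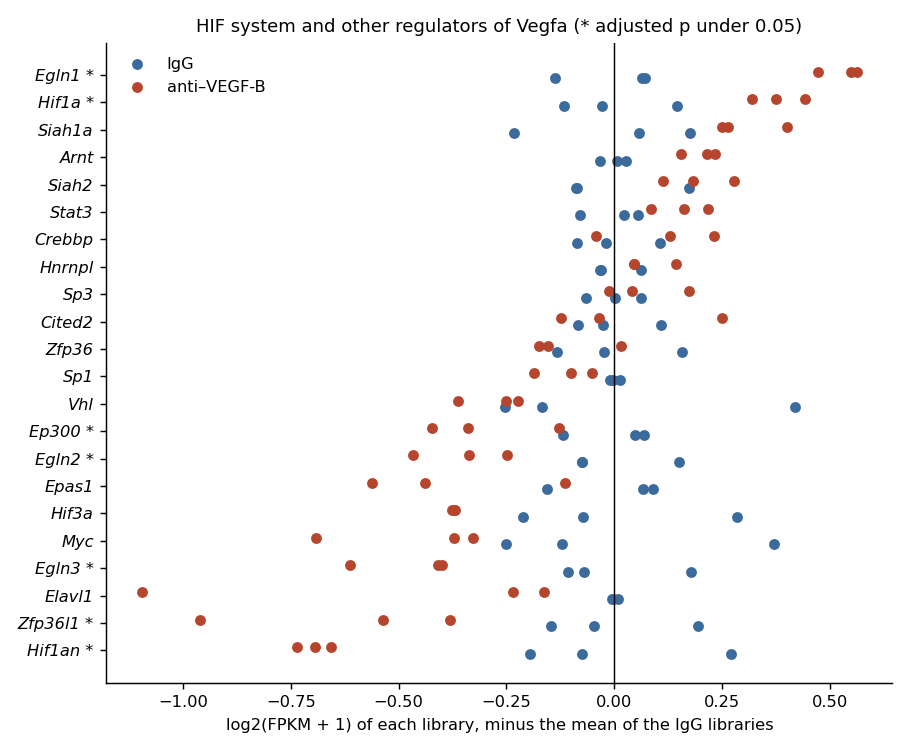
log2(FPKM + 1) of each library minus the mean of the IgG libraries (horizontal axis) for the 22 genes of the HIF system and other regulators of Vegfa, ordered by fold change, with IgG libraries in blue and anti–VEGF-B libraries in red. Asterisks mark an adjusted p under 0.05 in limma. Egln1 and Hif1a lay to the right in all anti–VEGF-B libraries, and Hif1an, Zfp36l1 and Egln3 to the left.

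For Vegfb, 8 genes were tested from a list of PGC-1-type coactivators and nuclear regulators of mitochondrial genes, to which the transcriptional coregulator gene Cited1 had been added. Pprc1, which encodes a coactivator related to PGC-1α, fell from 2.73 ± 0.427 to 1.3 ± 0.145 FPKM (SD, n = 3 each, log2 fold change -0.69, limma adjusted p = 0.00711). Cited1 rose from 3.08 ± 0.665 to 7.49 ± 1.28 FPKM (log2 fold change 1.06, limma adjusted p = 0.00491). The other 6 did not pass, including Gabpa (-0.090, positive under at least 1 alternative) and Esrra (-0.40), with adjusted p from 0.0652 to 0.602 (limma). The list thus had 1 gene lower and 1 higher, 12.5% each against 23.8% and 4.87% of all genes, and its median log2 fold change of -0.17 was near that of all genes. The gene called higher was the added Cited1, so the share called higher does not describe the coactivators and mitochondrial regulators.

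Genes of the pathway that VEGF receptors use inside the cell, most of which T cells also use downstream of the T cell receptor, were taken as a list of 90, of which 80 were tested. With anti–VEGF-B 19 were called lower and 6 higher. The shares, 23.8% and 7.50%, were close to the 23.8% and 4.87% of all genes, and the median log2 fold change, -0.15, was that of all genes. The list as a whole therefore moved like the rest of the table. The number called lower was 6 without anti–VEGF-B replicate 3 and 11 without IgG replicate 2, and the numbers lower and higher were 11 and 9 after quantile normalization, 11 and 9 after cyclic loess normalization and 9 and 11 after median centring.

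**Figure D4:**
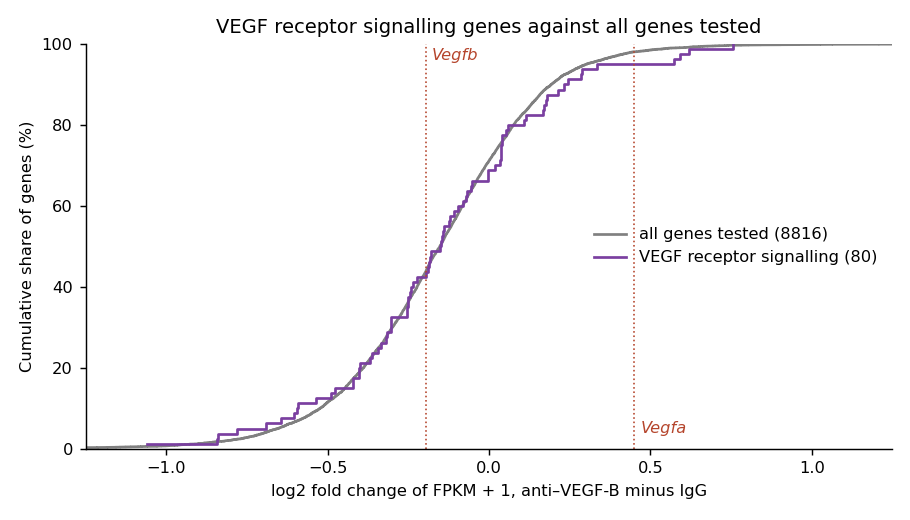
Cumulative share of genes (vertical axis, %) against the log2 fold change of FPKM + 1 (horizontal axis, anti–VEGF-B minus IgG) for all 8816 genes tested (grey) and for 80 VEGF receptor signalling genes (purple). Dotted lines mark Vegfb at -0.20 and Vegfa at 0.45. The curves ran together over most of their course.

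Single members of this list differed strongly. Dusp6, the gene of a phosphatase that inactivates ERK and is itself induced by ERK signaling, fell most. It was at 3.17, 3.09 and 3.00 FPKM in the anti–VEGF-B replicates and at 6.66, 9.24 and 6.87 FPKM in the IgG replicates, a log2 fold change of -1.06 (SE 0.124, limma adjusted p = 0.00469). In contrast Dusp5, the gene of a nuclear ERK phosphatase, rose, with 101, 108 and 114 FPKM against 72.2, 71.5 and 71.9 FPKM (log2 fold change 0.57, limma adjusted p = 0.00469). Among the sprouty genes, whose products restrain receptor tyrosine kinase signaling, Spry1 rose (0.59, limma adjusted p = 0.00783) and Spry2 fell (-0.48, adjusted p = 0.0210), the latter called neither after quantile normalization, cyclic loess normalization or median centring nor without anti–VEGF-B replicate 1 or 3 (adjusted p 0.0214 to 0.177 across alternatives).

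Of the genes that carry the signal, Rasgrp1 (-0.78), which encodes a guanine nucleotide exchange factor, Akt1 (-0.84), Mapkapk3 (-0.64), a kinase gene downstream of p38, and Nfatc1 (-0.84), a calcineurin-regulated transcription factor gene, fell, with adjusted p from 0.00527 to 0.0104 (limma). Nfatc1 went from 17.4 ± 2.78 to 9.23 ± 1.19 FPKM (SD, n = 3 each). The adaptor gene Bcar1 (p130Cas) rose from 23.7 ± 2.65 to 37.0 ± 3.71 FPKM (log2 fold change 0.62, limma adjusted p = 0.00711), and Hspb1, which encodes the small heat shock protein phosphorylated on the p38 arm of VEGF signaling, rose from 1.16 ± 0.388 to 2.62 ± 0.484 FPKM (0.75, adjusted p = 0.0121). The phosphatase gene Ptpn2 (0.34) and the PI3K regulatory subunit gene Pik3r1 (0.28) completed the 6 called higher, and neither was called without anti–VEGF-B replicate 1, 2 or 3 or without IgG replicate 2, nor Pik3r1 without IgG replicate 1 or when scaled to Actb. Plcg1 (0.17), the phospholipase gene next to VEGFR-2 in the pathway, and the kinase gene Mapk3 (-0.052), whose sign turned under at least 1 alternative, were not called.

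**Figure D5:**
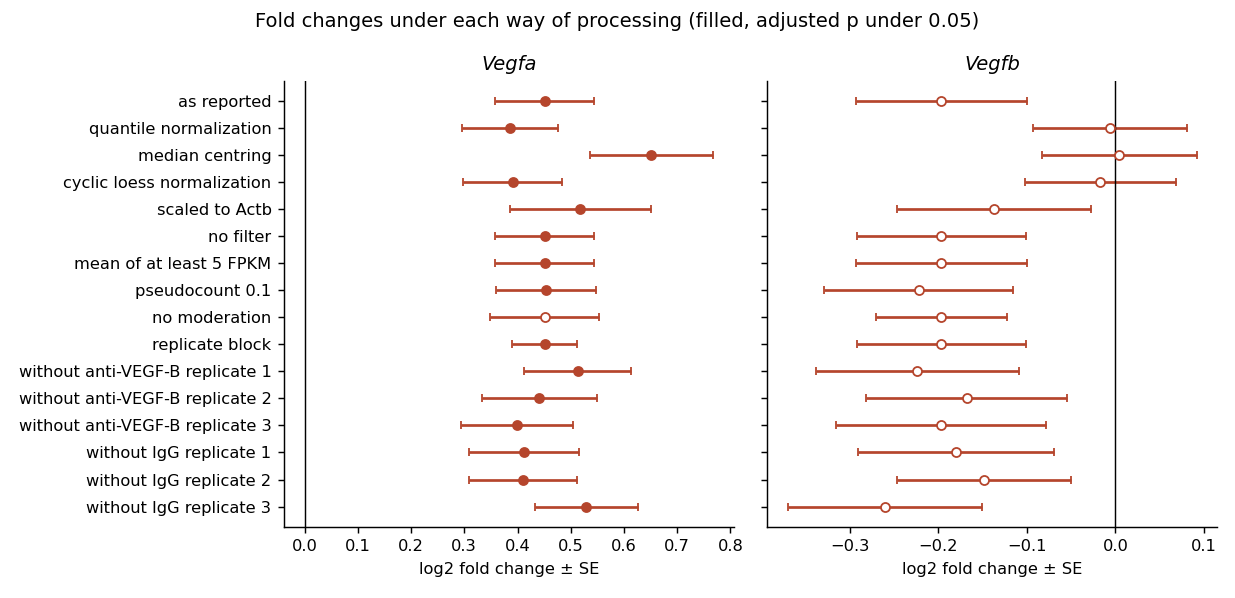
log2 fold change with standard error (horizontal axes, each with its own range) of Vegfa (left) and Vegfb (right) as reported and under 15 other ways of processing. Filled points had an adjusted p under 0.05. Vegfa stayed between 0.39 and 0.65 throughout, and Vegfb lay between -0.26 and 0.0044 and was never called.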

How the data were processed

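RNA-Seq libraries of CD4+ T cells (3 with anti–VEGF-B, 3 with IgG) were compared. The authors aligned reads of stranded libraries to GRCm38 with hisat2 2.1.0, quantified transcripts with StringTie 1.3.3 and Ballgown 2.10.0, used CPAT 1.2.4, and deposited 1 table of values per gene. The deposited values were treated as FPKM, a unit that no source used here names, because they are not whole numbers and come from these tools. No step between libraries is given in the sources used here. Whole reads could not be recovered, since at most 2.62% of values under 0.3 FPKM had the same between-library ratio to 3 digits, so depth is unknown. All 6 value columns were matched to samples by their labels.

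Genes averaging 1 FPKM or more were fitted on the log2(FPKM + 1) scale by limma 3.58.1 (R 4.3.3, empirical Bayes with trend, no covariate), with Benjamini-Hochberg adjustment over all genes. Listed genes under this filter were taken from a separate fit of the same form over all 10995 listed genes, with its own adjustment. Exact permutation tests used scipy 1.17.1. The fit was tested on simulated data. Gene positions and overlaps came from the file and from RefSeq (GRCm38.p6).

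The genes and lists were chosen with earlier results of these data known. Lists were written by hand and are described by counts beside all genes. Named were all members, all tested partners of the 2 short family lists, up to 6 called genes per direction and list with the lowest p, and the 3 genes most like each tested ligand; 1 gene that this rule names is not reported here. Arnt, Epas1, Hif3a, Vhl, Stat3, Sp1, Sp3, Myc, Zfp36, Gabpa, Esrra, Spry2, Plcg1, Mapk3, Cd3d, Cd4, Foxp3, Gpr83, Itgae, Cd8a, Cd8b1, Lyz2 and the markers not listed were named after their values were seen. No sequences are shown because none was among the files used here. Alternatives changed scaling, filter, pseudocount, moderation, threshold, replicate block and libraries.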

Additional observations from a re-analysis of the deposited data

How the results depend on the processing

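The direction of the Vegfa change held under all 16 alternatives run and its call under 14. It was not called with no moderation (log2 fold change 0.45) or where calls needed an unadjusted p under 0.05 and a log2 fold change beyond 0.5 in either direction (0.45). That threshold also gave 1121 genes over the table, 0 members, 10 VEGF receptor signalling genes lower and 3 HIF system genes. With no moderation 12 genes were called, and 0 members, signalling genes, partners or HIF system genes. Scaling to Actb gave 1674 calls, and a mean of at least 5 FPKM 1331 calls, 12 signalling genes lower and 1 partner. Signalling genes called lower numbered 11 after quantile normalization, 11 after cyclic loess normalization and 9 after median centring, with 11 higher after median centring. Vegfb was at 0.0044 after median centring, and Pgf was at 0.13 with that centring, 0.031 with quantile and 0.037 with cyclic loess normalization. The cause of these shifts was not tested.

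Leaving out 1 library at a time gave 859 to 2467 calls over the table, 1 member in each fit, 6 to 20 signalling genes lower, 4 to 6 higher, 2 to 6 partners and 3 to 10 HIF system genes. The log2 fold changes ran from 0.40 to 0.53 for Vegfa, -0.26 to -0.15 for Vegfb, -0.39 to -0.19 for Nrp2 and -0.17 to -0.00041 for Pgf, and the log2 ratio of Vegfb to Vegfa differed by -0.83 to -0.58. Where this left 2 libraries in a group, their spread was pooled with that of the other.

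Whether same-numbered libraries were paired is not given in the sources used here. The correlations of their deviations from the group means were -0.0296, 0.110 and 0.0891, which with 3 libraries per treatment cannot decide it. With the replicate block, 21 signalling genes were called lower and no call of a member changed. The log2 fold change of Vegfa was 0.45, as without the block, with an SE of 0.0613 against 0.0926. For the ratio, differences of same-numbered libraries gave p = 0.25 in an exact sign-flip test, the smallest that 3 pairs allow. The ratio of Nrp1 to Nrp2 had been planned and could not be formed. Depth is unknown, which limits the values of Nrp2 and Pgf most.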

Other observations

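Values of the nearest listed genes beside the ligand genes are given here. The nearest listed genes beside Vegfb, which lie close to it on chromosome 19, were Fkbp2 at a distance of 2011 bases and Dnajc4 at 260 bases. Their log2 fold changes were -0.32 (limma adjusted p = 0.122, fit over all listed genes) and 0.13 (adjusted p = 0.444), against -0.20 for Vegfb. The nearest listed genes beside Vegfa on chromosome 17 were farther away, 1600014C23Rik at 283149 bases, with a log2 fold change of -0.59 (adjusted p = 0.0240), and Mrps18a at 78609 bases, with -0.20 (adjusted p = 0.157), against a rise of 0.45 for Vegfa. These neighbours were looked up after the values of the ligands were known.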
